A study of Mus musculus with 9 samples.

Results

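MHC and antigen processing genes were followed in cultured mouse regulatory T cells (Tregs) with and without Ezh2. The set holds 36 genes chosen by name from the 43432 gene rows of the count table: 8 class I heavy chain genes, 9 genes of the class II pathway, 8 genes of β2-microglobulin, peptide transport, loading and trimming, 5 genes of the immunoproteasome and its activator, 5 regulators and the lipid-presenting Cd1d1. All 36 passed the filter on low counts and were among the 13685 genes tested. The Ezh2-deficient group had 4 libraries from C57BL/6 mice that carried Foxp3-Cre-GFP, the reporter R26-LSL-RFP and Ezh2-fl/fl. The WT group had 5 libraries with the same Cre and reporter, of which replicate 1 was Ezh2-fl/+ and replicates 2 to 5 were Ezh2-+/+. Because the Cre is driven by Foxp3, cells of a culture that never expressed Foxp3 keep Ezh2. CD62L-high Tregs had been sorted, stimulated through CD3 and CD28 on microbeads, and kept with 2000 U/ml IL-2 to day 4. Group members are called biological replicates in the series' design, and p values measure the spread between these libraries.

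MHC class I molecules show peptides from inside the cell to CD8 T cells. Cytosolic proteins are cut by the proteasome, whose catalytic subunits are exchanged for immunoproteasome subunits in lymphocytes. The peptides are pumped into the endoplasmic reticulum by the TAP transporter and loaded onto a heavy chain that is paired with β2-microglobulin. Class II molecules carry peptides from endosomes to CD4 T cells. They are typical of B cells, dendritic cells and macrophages, and mouse T cells generally make little of them. Nlrc5 is the transactivator of class I genes and Ciita that of class II genes, and both act through the RFX complex (Rfx5, Rfxap, Rfxank) at promoters. Ezh2 is the enzyme of Polycomb repressive complex 2, which methylates histone H3 at lysine 27, and in tumour cell lines that complex is known to hold class I pathway genes and CIITA at low levels.

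Total counts were 32469450 to 62201921 per library. Levels are in CPM, a gene's share of its library's counts on the TMM-scaled library size, and are listed by replicate number, with means ± SD (n = 4 Ezh2-deficient, n = 5 WT). Log2FC is the log2 fold change, positive where Ezh2-deficient Tregs were higher, with adjusted p from edgeR's quasi-likelihood test over all genes and a threshold of 0.05. Ezh2 itself was at 153, 167, 164 and 159 CPM in the Ezh2-deficient and 268, 332, 288, 234 and 360.3 CPM in the WT libraries (log2FC -0.88, adjusted p = 0.000363), and reads from transcripts that lack only the floxed exons still count. Foxp3, which defines Tregs, was at 1647, 1968, 1952 and 1665 CPM in the Ezh2-deficient and 1528, 1494, 1486, 1542 and 1293 CPM in the WT libraries, and it rose with no overlap (log2FC 0.30, adjusted p = 0.0313). Cd4 was below WT in every Ezh2-deficient library but did not pass (log2FC -0.19, adjusted p = 0.0644), and Cd3e was at 223 to 294 CPM in the 9 libraries. Of 8 Treg and T cell markers, all tested, 1 rose and 0 fell, where 13.1% and 8.80% of all tested genes did. The sum of the 8 markers was 10756 to 11604 CPM against 9734 to 10553 CPM. The libraries fell into sets by their mean level of 22 hypoxia-response genes: Ezh2-deficient replicates 1 and 4 and WT replicates 1, 2 and 4 had scores of 0.54 to 0.79, and Ezh2-deficient replicates 2 and 3 and WT replicates 3 and 5 had scores of -0.85 to -0.73 (mean log2 CPM relative to the average of all libraries). Each set holds libraries of both groups.

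Transcripts of 6 of 8 class I heavy chain genes, B2m and Nlrc5 were higher in Ezh2-deficient Tregs, whereas none of the TAP, tapasin and immunoproteasome transcripts rose. Of the 36 genes, 12 rose and 4 fell, where 13.1% of all 13685 tested genes rose, 8.80% fell and 21.9% changed in either direction. The 12 that rose were H2-K1, H2-D1, H2-Q4, H2-Q6, H2-Q7, H2-T22, B2m, Nlrc5, Rfx5, H2-DMa, H2-Oa and Cd1d1, and the 4 that fell were Tapbp, Psmb8, Cd74 and Ciita. The groups did not overlap for 12 genes with every Ezh2-deficient library above every WT library, against 12.5% of all tested genes, and for 3 genes with every one below, against 8.69% (21.2% of all tested genes in either direction). The changes were moderate, from -1.0 (Cd74) to 0.95 (H2-Q6) on the log2 scale. The median over the 36 was 0.09, beside 0.0026 over all tested genes. In a bulk library, fewer cells of a type and less RNA per cell cannot be told apart.

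**Figure D1:**
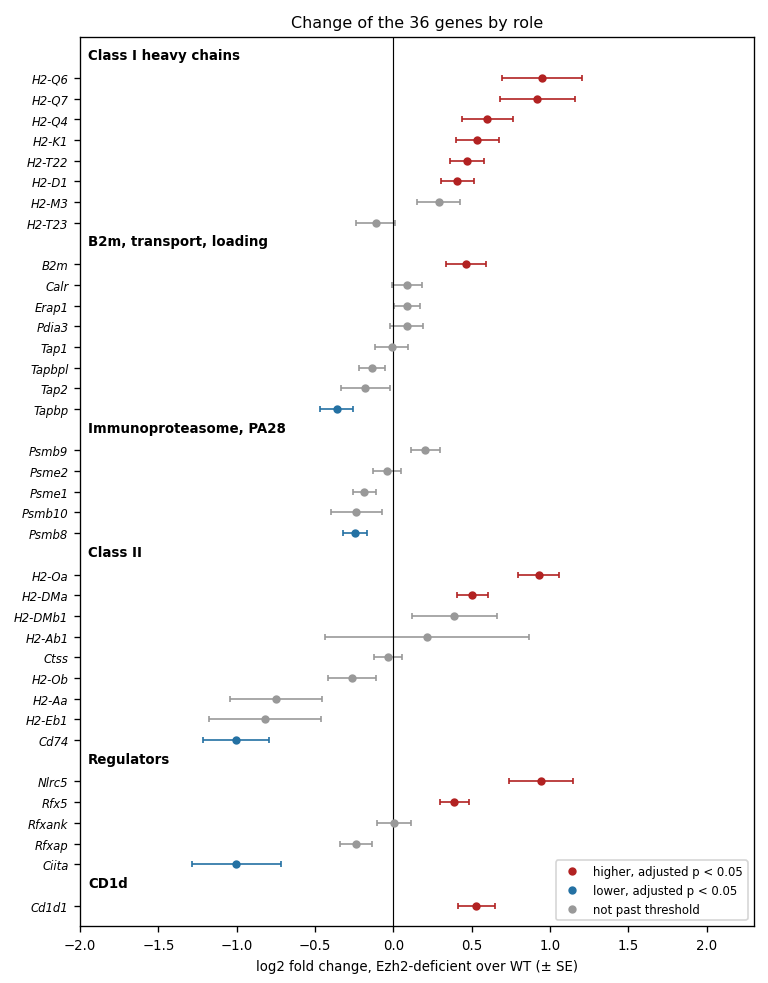
Log2 fold change (Ezh2-deficient over WT, x axis) with its SE for each of the 36 genes, grouped by role; red points rose and blue points fell past an adjusted p of 0.05, and grey points did not pass. In all, 6 of 8 class I heavy chain genes sit to the right of 0 in red, with H2-Q6 at 0.95, and Cd74 and Ciita lie at -1.0.

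Of the 8 class I heavy chain genes, 6 rose (75%) and 0 fell, where 13.1% and 8.80% of all tested genes did. The median log2 fold change over the 8 was 0.50. Foxp3 rose in the same libraries (log2FC 0.30), and its part in the class I values was not tested. H2-K1 encodes the heavy chain of H-2K, a classical class I molecule (chromosome 17, 33996017 to 34000347, GRCm38). It was at 1529.5, 1339.7, 1424 and 1474 CPM in Ezh2-deficient and 1156, 1063, 712, 1182 and 858 CPM in WT libraries. All 4 Ezh2-deficient libraries stood above all 5 WT libraries, and WT replicates 3 and 5 were the lowest. The means were 1442 ± 80.6 against 994 ± 203 CPM, a 1.45-fold rise (log2FC 0.54, SE 0.14, adjusted p = 0.0159). H2-D1, the gene of the second classical molecule H-2D (chromosome 17, 35262730 to 35267499), was at 1609, 1572, 1564 and 1504 CPM against 1313, 1213, 923, 1318 and 1115 CPM. Here too the groups did not overlap, and WT replicate 3 was again the lowest (1562 ± 43.7 against 1177 ± 164 CPM; log2FC 0.41, SE 0.10, adjusted p = 0.0156). The call of H2-K1 was lost when Ezh2-deficient replicate 1 was removed (log2FC 0.48; adjusted p = 0.0634), and that of H2-D1 when Ezh2-deficient replicate 1 or 3 was removed (log2FC 0.37 to 0.39; adjusted p = 0.0575 to 0.0651).

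The nonclassical Qa-2 genes had the largest rises of the class I set. H2-Q6 was at 269.8, 243, 275 and 261 CPM in Ezh2-deficient and 187, 160.1, 65.6, 161 and 107 CPM in WT libraries, a 1.93-fold rise (262 ± 14 against 136 ± 48.9 CPM; log2FC 0.95, SE 0.26, adjusted p = 0.027). H2-Q7, which encodes the Qa-2 antigen, was at 243, 214, 237 and 224 CPM against 161, 127, 68.3, 164 and 85.9 CPM (229 ± 13.2 against 121 ± 43.4 CPM; log2FC 0.92, SE 0.24, adjusted p = 0.0223). In both genes the Ezh2-deficient libraries lay close together, while WT values spread widely, from replicate 3 at the bottom to replicates 1 and 4 near the top. H2-Q4, which encodes the Qb-1 antigen, was at 182, 150.2, 166 and 172 CPM against 141, 129, 73.2, 116 and 92.8 CPM (168 ± 13.3 against 110.4 ± 27.4 CPM; log2FC 0.60, SE 0.16, adjusted p = 0.0215), also with no overlap. The rise of H2-Q6 did not pass when any 1 Ezh2-deficient library, or else WT replicate 5, was removed (log2FC 0.86 to 0.95; adjusted p = 0.0525 to 0.0772). The rise of H2-Q7 did not pass when Ezh2-deficient replicate 1, 3 or 4, or else WT replicate 2 was removed (log2FC 0.86 to 0.91; adjusted p = 0.0511 to 0.0652) and H2-Q4 when Ezh2-deficient replicate 1, 3 or 4 was removed (log2FC 0.53 to 0.58; adjusted p = 0.0622 to 0.0766).

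H2-T22 encodes a class I-like molecule that some γδ T cell receptors recognise. It was at 72.7, 69.2, 73.1 and 78.5 CPM in Ezh2-deficient and 58.8, 54.6, 40, 59 and 52.1 CPM in WT libraries, without overlap, and kept its call when any 1 library was left out (73.4 ± 3.83 against 52.9 ± 7.77 CPM; log2FC 0.47, SE 0.11, adjusted p = 0.0095). H2-T23, the gene of Qa-1, which shows leader peptides of other class I chains to NK cell receptors, was close between groups. Its values were 85.5, 90.4, 76.4 and 91.8 CPM against 93, 87, 89.7, 121 and 74.4 CPM, and the ranges overlapped (log2FC -0.11, adjusted p = 0.536). H2-M3, which presents formylated peptides, was at 37.7 ± 6.27 against 30.8 ± 5.12 CPM, short of the threshold (log2FC 0.29, adjusted p = 0.15).

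Class I heavy chain genes are near copies of one another, so their counts are uncertain where reads match several genes. The share of 50-base stretches of a gene's transcripts that also occur in another gene was 9.63% for H2-K1, 12.8% for H2-D1, 21.8% for H2-Q4, 26.4% for H2-Q7, 32% for H2-Q6 and 34.5% for H2-T22. H2-Q6 shared most with H2-Q7, and H2-T22 with H2-T10. H2-Q4 and H2-T22 also overlap the antisense genes Gm11131 and A930015D03Rik, and the strand setting of the counting is not given in the sources used here. B2m and Nlrc5 shared no such stretch with another gene.

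The start regions of all 8 class I heavy chain genes and of B2m are shown, so that those of the 6 that rose can be read beside those of H2-T23 and H2-M3, which did not pass. RefSeq windows (GRCm38.p6), from 250 bases before to 50 after a gene's start, were found for 28 of the 36 genes, and the first listed window of each was used. Capitals mark matches, on either strand, to 4 motifs, whose matches do not overlap each other in the windows shown. These are GGGATTCCC, the NF-κB-type core of enhancer A, GAANNGAAA, an interferon-response-like repeat, TGACG, as in the X2 element, and CCAAT, the Y box bound by NF-Y, which reads ATTGG on the other strand.
H2-K1 (chr17:34000298-34000597, - strand): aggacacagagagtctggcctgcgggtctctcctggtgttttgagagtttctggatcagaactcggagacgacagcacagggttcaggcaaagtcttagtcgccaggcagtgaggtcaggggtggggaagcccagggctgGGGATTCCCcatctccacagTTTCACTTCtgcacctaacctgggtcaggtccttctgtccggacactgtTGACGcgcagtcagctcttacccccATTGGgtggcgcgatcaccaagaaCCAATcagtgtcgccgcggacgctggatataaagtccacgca
H2-D1 (chr17:35262844-35263143, + strand): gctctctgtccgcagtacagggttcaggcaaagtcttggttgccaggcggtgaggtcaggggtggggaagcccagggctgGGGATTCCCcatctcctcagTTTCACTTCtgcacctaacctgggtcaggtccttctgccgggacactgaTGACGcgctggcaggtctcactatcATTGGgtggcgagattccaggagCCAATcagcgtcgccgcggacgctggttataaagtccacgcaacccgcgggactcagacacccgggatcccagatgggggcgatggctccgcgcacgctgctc
H2-Q4 (chr17:35379367-35379666, + strand): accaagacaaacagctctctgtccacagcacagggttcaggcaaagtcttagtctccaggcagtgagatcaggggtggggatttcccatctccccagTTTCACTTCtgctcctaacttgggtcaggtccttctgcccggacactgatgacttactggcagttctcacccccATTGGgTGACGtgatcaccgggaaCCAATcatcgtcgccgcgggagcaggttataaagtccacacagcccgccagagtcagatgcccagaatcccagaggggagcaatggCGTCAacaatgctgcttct
H2-Q6 (chr17:35424600-35424899, + strand): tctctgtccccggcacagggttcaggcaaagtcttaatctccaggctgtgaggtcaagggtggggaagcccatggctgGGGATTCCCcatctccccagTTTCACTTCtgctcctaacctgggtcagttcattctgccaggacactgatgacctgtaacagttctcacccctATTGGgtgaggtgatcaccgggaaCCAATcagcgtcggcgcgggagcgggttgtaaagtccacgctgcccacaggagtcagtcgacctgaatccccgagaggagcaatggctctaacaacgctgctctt
H2-Q7 (chr17:35438905-35439204, + strand): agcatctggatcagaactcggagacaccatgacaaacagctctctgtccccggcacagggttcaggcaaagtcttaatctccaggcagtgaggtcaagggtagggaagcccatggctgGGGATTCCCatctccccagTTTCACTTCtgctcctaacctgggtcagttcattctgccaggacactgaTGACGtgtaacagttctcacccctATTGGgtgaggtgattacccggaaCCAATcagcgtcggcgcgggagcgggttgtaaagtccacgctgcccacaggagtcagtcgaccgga
H2-T22 (chr17:36042693-36042992, - strand): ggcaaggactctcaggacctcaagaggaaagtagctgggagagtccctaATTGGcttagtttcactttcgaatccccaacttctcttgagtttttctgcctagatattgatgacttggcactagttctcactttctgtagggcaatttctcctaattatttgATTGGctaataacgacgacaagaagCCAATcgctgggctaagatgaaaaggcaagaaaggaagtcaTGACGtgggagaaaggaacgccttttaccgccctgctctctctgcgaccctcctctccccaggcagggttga
H2-T23 (chr17:36032652-36032951, - strand): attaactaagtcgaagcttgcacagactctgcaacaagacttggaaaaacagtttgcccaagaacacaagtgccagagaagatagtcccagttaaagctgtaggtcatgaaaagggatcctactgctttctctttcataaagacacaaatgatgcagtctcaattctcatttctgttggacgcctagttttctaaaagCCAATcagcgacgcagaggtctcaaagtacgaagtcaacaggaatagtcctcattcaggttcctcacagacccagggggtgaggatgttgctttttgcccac
H2-M3 (chr17:37269984-37270283, + strand): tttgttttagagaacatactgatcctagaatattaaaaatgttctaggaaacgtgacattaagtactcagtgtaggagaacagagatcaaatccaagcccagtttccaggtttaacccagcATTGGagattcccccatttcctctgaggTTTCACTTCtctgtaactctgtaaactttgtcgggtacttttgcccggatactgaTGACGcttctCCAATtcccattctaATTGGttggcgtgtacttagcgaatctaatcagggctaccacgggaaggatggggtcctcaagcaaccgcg
B2m (chr2:122147437-122147736, + strand): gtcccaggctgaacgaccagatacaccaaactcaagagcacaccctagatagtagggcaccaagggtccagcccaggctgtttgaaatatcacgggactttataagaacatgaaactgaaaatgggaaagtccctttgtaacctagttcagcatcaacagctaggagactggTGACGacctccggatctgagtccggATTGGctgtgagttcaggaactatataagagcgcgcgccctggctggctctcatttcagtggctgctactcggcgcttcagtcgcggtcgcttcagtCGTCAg
GGGATTCCC occurred in the windows of H2-K1, H2-D1, H2-Q6 and H2-Q7 and in no other of the 28, against 0.37% of all 27025 windows. GAANNGAAA stood in 8 of 28 windows, including H2-K1, H2-D1, H2-Q4, H2-Q6, H2-Q7 and H2-M3, against 7.56% of all. A CCAAT was in 21 of 28 against 37.9%, and TGACG in 12 of 28 against 21%. Exact matches to the motifs did not divide the genes by the test. H2-Q4 and H2-T22, which rose, held no exact GGGATTCCC, and H2-T22 no exact GAANNGAAA. H2-M3, which did not pass, held GAANNGAAA, TGACG and CCAAT. Variants of the motifs were not counted or marked, such as gggatttccc in the H2-Q4 window and tttcactttc in the H2-T22 window. The H2-T23 window held a single CCAAT and none of the other motifs, while that of B2m held a CCAAT and TGACG on both strands. These are letter matches in windows that share ancestry between gene copies, and binding was not measured.

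B2m, which encodes the light chain that every class I heavy chain needs (chromosome 2, 122147686 to 122153083), rose with the heavy chains. Its values were 1523, 1431, 1500.1 and 1712 CPM in Ezh2-deficient and 1273, 1114, 786, 1201 and 1219 CPM in WT libraries. The groups did not overlap (1542 ± 120.2 against 1119 ± 195 CPM; log2FC 0.46, SE 0.13, adjusted p = 0.0224), with WT replicate 3 lowest. The call was lost when Ezh2-deficient replicate 1, 3 or 4, or else WT replicate 2 was removed (log2FC 0.39 to 0.45; adjusted p = 0.0576 to 0.0825).

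**Figure D2:**
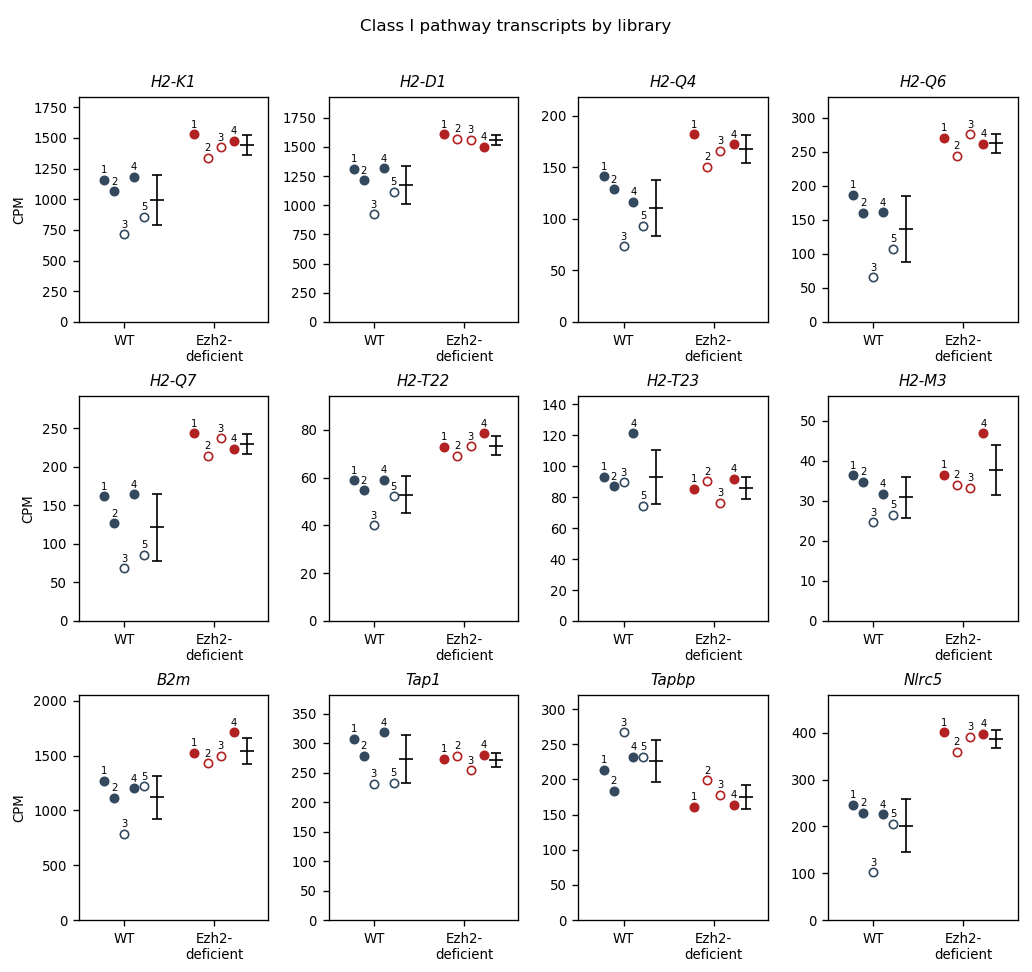
CPM (y axis, from 0) of class I pathway genes in each library, numbered by replicate, for WT and Ezh2-deficient Tregs, with the mean ± SD to the right of each group; filled points are libraries with a high and open points those with a low hypoxia score. Nlrc5 is at 359 CPM or more in every Ezh2-deficient library and at 246 CPM or less in every WT library, while the Tap1 ranges overlap.

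Most peptide transport and loading genes did not pass the test. Of the 8 genes in this group, 1 rose (B2m) and 1 fell (Tapbp), 12.5% each, where 13.1% and 8.80% of all tested genes did. Tap1, a subunit of the peptide transporter, was at 274, 279, 254 and 279.9 CPM against 308, 278, 231, 318 and 233 CPM, and its means were close (272 ± 11.8 against 274 ± 40.8 CPM; log2FC -0.01, adjusted p = 0.955). Its partner Tap2 was at 258 ± 56.9 against 292 ± 48.2 CPM (log2FC -0.18, adjusted p = 0.435). Tapbp, which encodes tapasin, the bridge between TAP and the heavy chain, fell slightly: 161, 199, 178 and 164 CPM against 214, 184, 267, 232 and 232 CPM, with overlap between Ezh2-deficient replicate 2 and WT replicate 2 (176 ± 17.1 against 226 ± 30.1 CPM; log2FC -0.36, SE 0.10, adjusted p = 0.028). That call was lost when Ezh2-deficient replicate 1, 3 or 4, or else WT replicate 4 was removed (log2FC -0.39 to -0.35; adjusted p = 0.0511 to 0.0668), and Tapbp shares exon bases with Zbtb22 on the same strand and Gm19412 on the other. Tapbpl, a tapasin-related editor of class I peptides, was at 48.6 ± 2.73 against 53.5 ± 4.8 CPM (log2FC -0.14). The peptide-trimming enzyme gene Erap1 (0.09) and the chaperone genes Pdia3 (0.08) and Calr (0.09) also did not pass, with adjusted p of 0.493 to 0.588 for these 3.

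Immunoproteasome transcripts showed 0 rises and 1 fall (20%) among 5 genes, where 13.1% of all tested genes rose and 8.80% fell. Psmb8, which encodes the LMP7 subunit, was at 405, 429, 382 and 363 CPM against 492, 465, 459, 485 and 435 CPM (395 ± 28.5 against 467 ± 22.7 CPM; log2FC -0.24, SE 0.07, adjusted p = 0.0362), and every Ezh2-deficient library lay below every WT library. The difference is small (1.18-fold lower), and the call was lost when Ezh2-deficient replicate 1, 3 or 4, or else WT replicate 1, 2 or 4 was removed (log2FC -0.28 to -0.23; adjusted p = 0.0506 to 0.0862). Psmb9, which encodes LMP2, was at 147 ± 8.26 against 127 ± 15.4 CPM (log2FC 0.20, adjusted p = 0.127) and Psmb10, which encodes MECL-1, at 39.6 ± 6.65 against 46.6 ± 10.3 CPM (log2FC -0.24, adjusted p = 0.32). The genes of the PA28 activator, Psme1 and Psme2, were at 148 ± 1.59 against 168 ± 13.9 CPM and 65.1 ± 7.06 against 67 ± 4.51 CPM (log2FC -0.19 and -0.04; adjusted p = 0.0885 and 0.782). Psme1 did not overlap between groups but missed the threshold.

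Each immunoproteasome subunit replaces a constitutive one, and the ratio of such a pair does not depend on library scaling. The log2 ratio of Psmb9 to Psmb6 counts was 0.53, 0.20, 0.30 and 0.52 in Ezh2-deficient and 0.23, 0.00, -0.38, -0.06 and -0.22 in WT libraries. All but Ezh2-deficient replicate 2 lay above all WT libraries. The difference was 0.48 (means 0.39 ± 0.17 and -0.09 ± 0.23; two-sided exact permutation p = 0.0317, adjusted over the 3 pairs p = 0.0952, where the smallest possible unadjusted p is 0.0159), which does not pass. For Psmb8 over Psmb5 the difference was 0.08 (exact permutation p = 0.698, adjusted p = 0.698) and for Psmb10 over Psmb7 -0.17 (exact permutation p = 0.556, adjusted p = 0.698). The log2 ratio of Psmb8 to Psmb5 counts ranged from 3.41 to 4.28 over the 9 libraries.

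Nlrc5, the class I transactivator (chromosome 8, 94434356 to 94527272), rose 1.92-fold. It was at 401, 359, 392 and 398 CPM in Ezh2-deficient libraries and at 246, 229, 102, 226 and 206 CPM in WT libraries. The groups were far apart, and WT replicate 3, which was also lowest for H2-K1, H2-D1, H2-Q4, H2-Q6, H2-Q7, H2-T22 and B2m, was the lowest here (388 ± 19.4 against 202 ± 57.5 CPM; log2FC 0.94, SE 0.21, adjusted p = 0.00935). The call held when any 1 library was left out; without WT replicate 3 the log2 fold change was 0.75. Within the libraries with a high hypoxia score it was 0.77 (adjusted p = 0.00129) and within those with a low score 1.26 (adjusted p = 0.0771). Without the library of each group that was highest for the CD8 T cell gene Cd8a it was 0.97 (adjusted p = 0.0543). WT replicate 1, with 1 floxed allele, had the highest Nlrc5 of the WT group. Rfx5, the DNA-binding subunit of the RFX complex (chromosome 3, 94954075 to 94961561), was at 70, 66.6, 71.6 and 65.1 CPM against 52.9, 59.4, 51.2, 54.8 and 43 CPM, without overlap (68.3 ± 3.02 against 52.2 ± 6.03 CPM; log2FC 0.39, SE 0.09, adjusted p = 0.0119). Its call was lost when Ezh2-deficient replicate 3 was removed (log2FC 0.34; adjusted p = 0.0516), and the gene overlaps the antisense transcript B230398E01Rik. The partner subunit genes Rfxap (log2FC -0.24, adjusted p = 0.113) and Rfxank (log2FC 0.01, adjusted p = 0.976) did not pass.

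Ciita, the class II transactivator (chromosome 16, 10480059 to 10528418), went the other way from Nlrc5 and stood at very low levels. Its values were 1.35, 1.07, 1.17 and 2.37 CPM in Ezh2-deficient and 3.1, 2.99, 3.87, 3.07 and 2.09 CPM in WT libraries (1.49 ± 0.598 against 3.03 ± 0.631 CPM; log2FC -1.0, SE 0.28, adjusted p = 0.0255). The ranges overlapped through Ezh2-deficient replicate 4 and WT replicate 5. The fall did not pass when Ezh2-deficient replicate 1, 2 or 3, or else WT replicate 3 was removed (log2FC -0.98 to -0.89; adjusted p = 0.0521 to 0.067), and the log2 fold change was -1.35 without Ezh2-deficient replicate 4.

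Per kilobase of merged exons, B2m had the highest level of the 36 genes (1793 CPM per kilobase in Ezh2-deficient and 1301 in WT Tregs). H2-D1 followed at 606 and 456 and H2-K1 at 491 and 338 CPM per kilobase. H2-Q6 and H2-Q7 were lower, at 65.3 and 28.4 CPM per kilobase in WT Tregs. Nlrc5 stood at 23.8 CPM per kilobase in WT Tregs and Ciita, the lowest of all, at 0.317. Among class II genes the WT levels per kilobase were 23.7 for Cd74, 10.9 for H2-Oa, 10.3 for H2-Ab1, 3.33 for H2-Eb1 and 1.57 for H2-Aa.

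**Figure D3:**
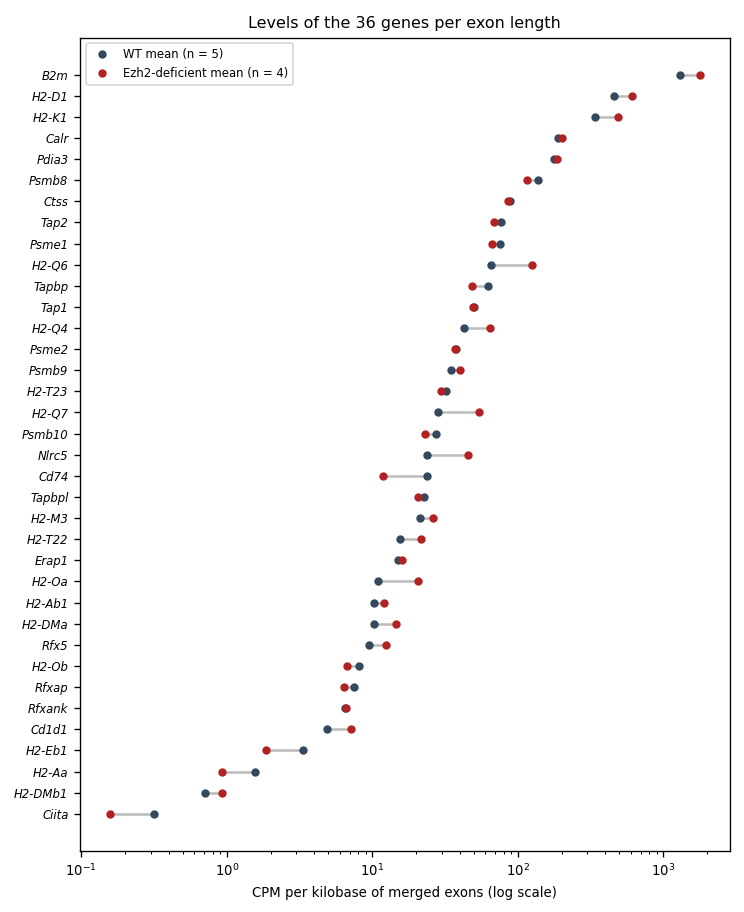
Mean CPM per kilobase of merged exons (x axis, log scale) in WT (dark) and Ezh2-deficient (red) Tregs for the 36 genes, ordered by the WT level. B2m, H2-D1 and H2-K1 lead, with B2m at 1301 in WT Tregs, and Ciita is last at 0.317.

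Of the 9 class II pathway genes, 2 rose (22.2%) and 1 fell (11.1%), where 13.1% and 8.80% of all tested genes did. Cd74, which encodes the invariant chain that guides class II molecules to endosomes (chromosome 18, 60803848 to 60812652), fell to 20.2, 19.6, 13.8 and 25.6 CPM from 32.1, 40.7, 53.8, 44.7 and 27.9 CPM. Every Ezh2-deficient library was below every WT library (19.8 ± 4.83 against 39.8 ± 10.3 CPM; log2FC -1.0, SE 0.21, adjusted p = 0.00655), and the call held when any 1 library was left out. Within the high hypoxia score libraries the log2 fold change was -0.78 (adjusted p = 0.0246) and within the low -1.31 (adjusted p = 0.0876). H2-Oa, the α chain of H2-O, which restrains peptide exchange by H2-DM, had the smallest adjusted p of the 36 genes. It was at 29.4, 32, 29.8 and 25.8 CPM against 13.6, 16.2, 13.9, 20.1 and 13.3 CPM (29.3 ± 2.55 against 15.4 ± 2.85 CPM; log2FC 0.93, SE 0.13, adjusted p = 0.000628), with no overlap and no call lost in any of 25 alternative settings. H2-DMa, the α chain of the peptide exchanger H2-DM, rose as well: 46.2, 56.3, 50.7 and 46.8 CPM against 35.8, 38.2, 34, 38.7 and 29.5 CPM (50 ± 4.64 against 35.2 ± 3.74 CPM; log2FC 0.50, SE 0.10, adjusted p = 0.00438). H2-DMa overlaps Brd2, and H2-Oa overlaps BC051537, each on the opposite strand.

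The partner chains of both heterodimers did not pass. H2-Ob, the β chain of H2-O, was at 36.1 ± 7.59 against 43.3 ± 7.28 CPM (log2FC -0.26, adjusted p = 0.235). H2-DMb1, a β chain of H2-DM, was very low at 1.56 ± 0.144 against 1.19 ± 0.356 CPM (log2FC 0.39, adjusted p = 0.318). Ctss, which encodes cathepsin S, the protease that trims the invariant chain, was the class II pathway gene with the highest CPM. It was at 123, 113, 111 and 122 CPM against 121, 121, 99.2, 129 and 129 CPM, with overlapping ranges (log2FC -0.03, adjusted p = 0.81).

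H2-Ab1, the β chain of the class II molecule I-A, did not separate the groups. It was at 47.3, 15.2, 10.1 and 50.4 CPM in Ezh2-deficient and 27, 36.6, 8.52, 46.7 and 13.9 CPM in WT libraries (log2FC 0.22, adjusted p = 0.847). The 5 libraries with a high hypoxia score, of both groups, stood at 27 to 50.4 CPM and the 4 with a low score at 8.52 to 15.2 CPM. H2-Ab1 was the single member of 36 for which these sets did not overlap, a share no greater than the 3.49% of all tested genes. Cd8a, a gene of CD8 T cells, was at 28.3, 0.936, 0.361 and 79.9 CPM and 35.8, 35.9, 1.98, 97.6 and 41.1 CPM in the same order. Cd8a was thus low in Ezh2-deficient replicates 2 and 3 and WT replicate 3, where H2-Ab1 was low too, but not in WT replicate 5; its part in the H2-Ab1 values was not tested. H2-Aa, the partner α chain, was at 3.97, 2.58, 1.72 and 5.84 CPM against 7.04, 6.73, 5.62, 5.42 and 5.03 CPM (log2FC -0.75, adjusted p = 0.0873), and H2-Eb1, the β chain of I-E, at 4.76, 2.81, 1.11 and 5.87 CPM against 5.48, 7.16, 6.57, 6.98 and 6.17 CPM (log2FC -0.82, adjusted p = 0.118). In both genes Ezh2-deficient replicates 2 and 3 were lowest, and neither passed the test.

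Transcripts of B cells, which express class II genes strongly, differed between libraries and are given here beside the class II values. Of 14 B cell markers, 13 were tested, 1 rose and 4 fell, where 13.1% and 8.80% of all tested genes did. The summed level of the 14 markers was 441 to 599 CPM in Ezh2-deficient and 582 to 875 CPM in WT libraries. Most of it came from Ighm, and the sum was 35.2 to 51.1 against 42.5 to 53.6 CPM without Ighm. Ms4a1, which encodes CD20, was at 1.04, 0, 0 and 2.57 CPM in Ezh2-deficient and 2.76, 1.97, 1.86, 1.27 and 2.06 CPM in WT libraries (log2FC -1.09, adjusted p = 0.474). It had 0 counts in Ezh2-deficient replicates 2 and 3, where the 3 counts that a 0 still allows would be 0.0685 and 0.0903 CPM. Ighm did not follow Ms4a1 over the Ezh2-deficient libraries, where it was at 405, 518, 494 and 548 CPM. The largest parts of the sum without Ighm in Ezh2-deficient replicate 2 were Cd79b (12 CPM), Ighd (9.75 CPM) and Bank1 (5.94 CPM). Neither sum was tested as a measure of B cell RNA, and neither is read as one. The 4 that fell were Cd79a, a B cell receptor signalling chain (log2FC -1.38, adjusted p = 0.00716), Blk (log2FC -1.94, adjusted p = 0.0463), Spib (log2FC -1.14, adjusted p = 0.0468) and Ighm (log2FC -0.49, adjusted p = 0.0187), and Bank1 rose (log2FC 1.04, adjusted p = 0.0489). The tested markers that did not pass went both ways. Cd79b (log2FC 0.11), Ebf1 (0.10) and Fcmr (0.20) had positive values. Cd22 (-1.38), Fcer2a (-1.94), Cr2 (-0.63) and Ighd (-0.38) had negative values, as did Ms4a1. Pax5, too low to be tested, was at 0.141, 0.0457, 0.0301 and 0.0975 CPM against 0.575, 0.37, 0.43, 0.185 and 0.243 CPM. Every Ezh2-deficient library was thus below every WT library for Pax5, on 14 and 81 counts. In Ezh2-deficient replicates 2 and 3 Cd79b was at 12 and 13.6 CPM and Cd22 at 0.0228 and 0.0602 CPM. In those libraries without a Ms4a1 count Cd74 was still at 19.6 and 13.8 CPM. Without them the log2 fold change was -0.82 (adjusted p = 0.047) for Cd74, -0.30 (adjusted p = 0.39) for H2-Aa, -0.30 (adjusted p = 0.306) for H2-Eb1 and -0.70 (adjusted p = 0.153) for Ciita, a fit of 2 against 5 libraries. Those libraries also have low hypoxia scores, so leaving them out changes the balance of the hypoxia sets too. The part of B cell RNA in the falls of Cd74 and Ciita was not tested.

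Most dendritic cell and macrophage markers were very low, but some were not. Of 14 such genes, 4 were tested, 1 rose and 0 fell, where 13.1% and 8.80% of all tested genes did. Levels of Zbtb46 ranged from 0.88 CPM (WT replicate 1) to 3.11 CPM (Ezh2-deficient replicate 2), without passing (log2FC 0.62, adjusted p = 0.173). Batf3 was highest in WT replicate 4, with 1.24 CPM, and also did not pass (log2FC -1.59, adjusted p = 0.135). Zbtb46 thus lay near the level of Ms4a1, and an absence of these cells was not shown. Clec9a had no count in any library, and Xcr1, Siglech, C1qa, Lyz2 and Csf1r stayed under 0.13 CPM or at it. The summed level was 66.6 to 85.4 CPM in Ezh2-deficient and 64.4 to 87.3 CPM in WT libraries, most of it from the widely expressed Cst3, and 5.45 to 6.92 against 3.07 to 5.58 CPM without it. The 1 that rose was Adgre1, which encodes F4/80 (3.23 ± 0.265 against 0.957 ± 0.499 CPM; log2FC 1.75, adjusted p = 0.00515). Flt3 (0.0707 against 0.331 CPM) and Cd14 (0.00705 against 0.205 CPM), too low to be tested, were lower in every Ezh2-deficient than in every WT library. Itgax (0.1 against 0.0407 CPM) and Mpeg1 (0.0914 against 0.191 CPM) were not tested either, and their ranges overlapped. Of 6 CD8 T cell and NK cell markers, 4 were tested and 0 changed at an adjusted p under 0.05, where 21.9% of all tested genes did. They summed to 18.2 to 150.1 and 21.3 to 153 CPM, with Ncr1 and Klra8 at 0 throughout. Of 4 thymic epithelial markers, 2 were tested and 0 changed, beside the same 21.9% of all tested genes. The 4 summed to 13.7 to 19.9 and 11.6 to 27.9 CPM, nearly all from Epcam.

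**Figure D4:**
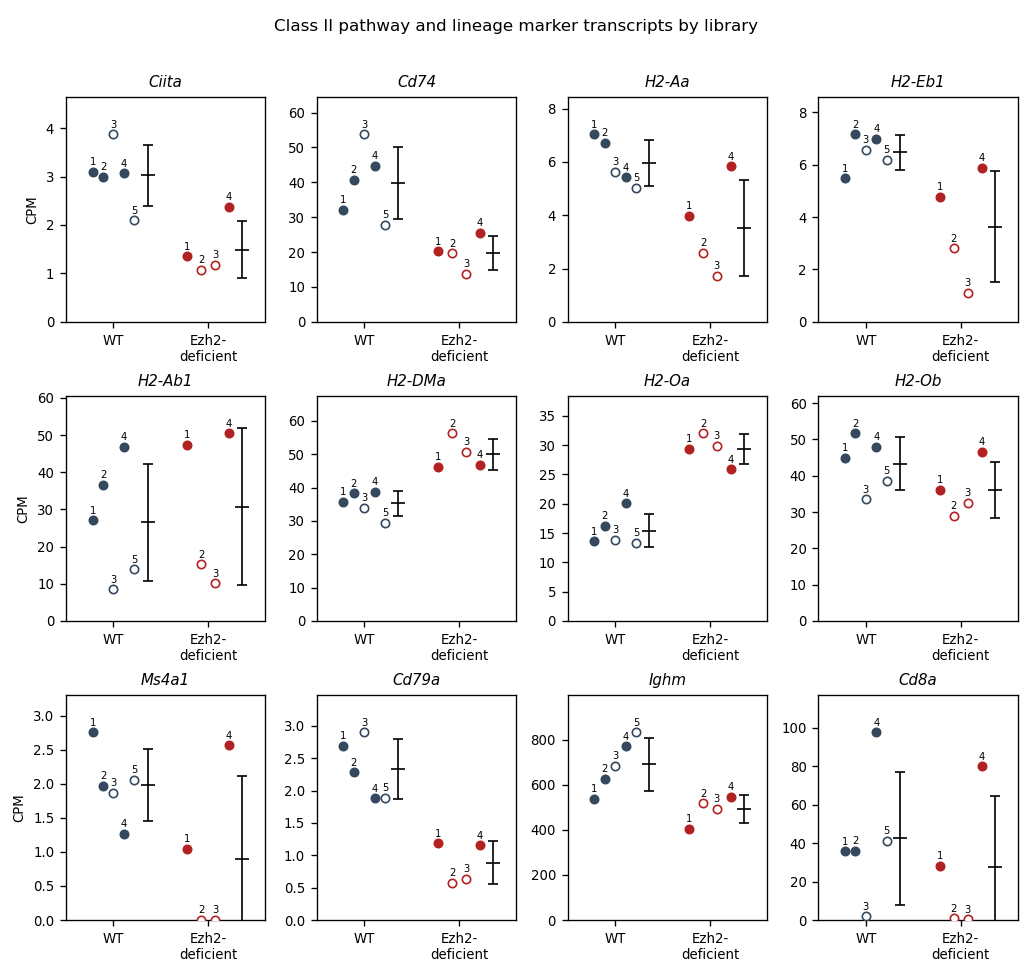
CPM (y axis, from 0) of class II pathway genes and of the lineage markers Ms4a1, Cd79a, Ighm and Cd8a in each library, numbered by replicate, with the mean ± SD beside each group; filled points have a high and open points a low hypoxia score. Cd74 and H2-Oa separate the groups in opposite directions, H2-Ab1 separates filled from open points, and Ms4a1 is at 0 in Ezh2-deficient replicates 2 and 3.

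Cd1d1, the class I-like molecule that presents lipids to NKT cells (chromosome 3, 86995834 to 86999441), was at 18.9, 18.3, 17.8 and 18 CPM in Ezh2-deficient and 13.7, 13.5, 11, 10.5 and 14.5 CPM in WT libraries. The groups did not overlap, and the call held when any 1 library was left out (18.2 ± 0.493 against 12.6 ± 1.78 CPM; log2FC 0.53, SE 0.12, adjusted p = 0.00856). Of its 50-base stretches 19.1% also occur in another gene, Cd1d2, which rose from a very low level (0.94 ± 0.141 against 0.435 ± 0.17 CPM; log2FC 1.09, adjusted p = 0.0415).

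The MHC lies on chromosome 17, where 20 of the 36 genes span 33915899 to 37274484 (3.36 Mb). Along this stretch neighbours differed. Of the 20, 8 rose and 2 fell. H2-Oa and H2-DMa, which rose, lie beside the block of Psmb9, Tap1, Psmb8 and Tap2, of which Psmb8 fell and the other 3 did not pass, and the class I genes that rose lie on both sides of it. Of the 112 other tested genes in the interval, 11 rose (9.82%) and 12 fell (10.7%), beside 13.1% and 8.80% of all tested genes. Of the 16 members elsewhere in the genome, 4 rose (B2m, Nlrc5, Rfx5 and Cd1d1) and 2 fell (Cd74 and Ciita).

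**Figure D5:**
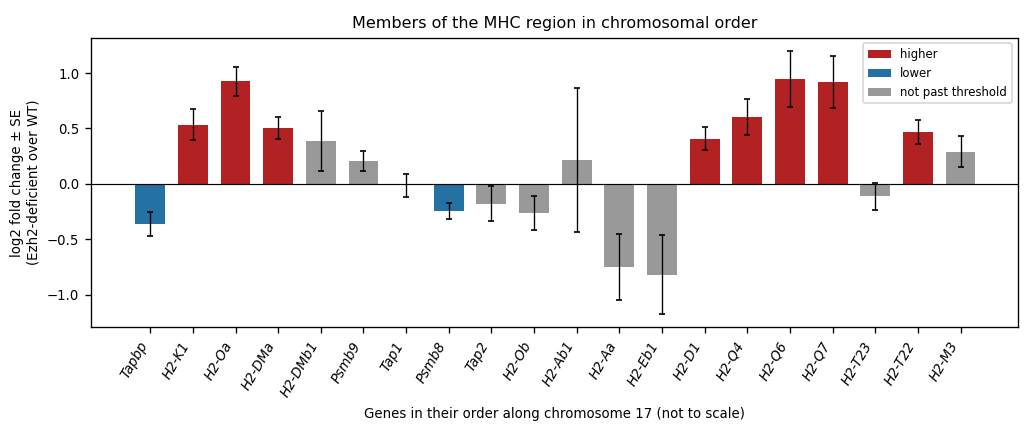
Log2 fold change ± SE (y axis, Ezh2-deficient over WT) of the 20 members on chromosome 17 in their order along the chromosome, spacing not to scale; red bars rose, blue bars fell and grey bars did not pass. Rises stand from H2-K1 to H2-DMa and, except H2-T23, from H2-D1 to H2-T22, around a middle block from H2-DMb1 to H2-Eb1 in which Psmb8 alone passed, at -0.24.

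Other genes of antigen presentation and its interferon control, 60 in all, changed in shares no greater than those of all tested genes. Of the 54 that were tested, 6 rose (11.1%) and 3 fell (5.56%). Besides Cd1d2, those that rose were H2-T10, a close copy of H2-T22 (27 ± 1.18 against 16 ± 3.53 CPM; log2FC 0.75, adjusted p = 0.00485), the interferon-γ receptor chain gene Ifngr1 (862 ± 47.6 against 576 ± 118 CPM; log2FC 0.58, adjusted p = 0.0107), the kinase gene Jak1 (log2FC 0.27, adjusted p = 0.04), the interferon-regulatory factor gene Irf2 (log2FC 0.35, adjusted p = 0.0144) and Lnpep, which encodes an aminopeptidase of endosomes that trims peptides (log2FC 0.40, adjusted p = 0.0125). Irf1, a transcription factor that relays interferon signals to class I genes, did not pass (log2FC 0.12, adjusted p = 0.73). The genes that fell were Ifi30, the thiol reductase of class II processing (44.1 ± 8.47 against 83.3 ± 6.62 CPM; log2FC -0.92, adjusted p = 0.000409), Ctsz, a lysosomal cathepsin (73.6 ± 3.77 against 103 ± 9.83 CPM; log2FC -0.48, adjusted p = 0.00242), and Thop1, a peptidase that destroys class I peptides in the cytosol (12.7 ± 2.59 against 24.1 ± 8.43 CPM; log2FC -0.92, adjusted p = 0.0136).

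Each of the 16 called genes kept its direction in all 25 alternative settings, while 6 of them (H2-T22, H2-DMa, H2-Oa, Cd74, Nlrc5 and Cd1d1) also kept their call whichever library was left out. Within the 5 high hypoxia score libraries, 2 Ezh2-deficient and 3 WT, 8 members rose and 2 fell, where 7.62% and 4.98% of all tested genes did. Within the 4 low score libraries, 2 of each group, 6 rose and 0 fell, where 3.08% and 1.06% of all tested genes did. H2-K1 changed by 0.40 (adjusted p = 0.0413) within the high and 0.79 (adjusted p = 0.0387) within the low set, and H2-Oa by 0.73 (adjusted p = 0.0321) and 1.16 (adjusted p = 0.0186). H2-Q4, H2-Q6 and H2-Q7 also passed in both sets. H2-D1, Rfx5, Cd1d1, Ciita, Tapbp and Psmb8 passed in neither (adjusted p = 0.0538 to 0.468). H2-DMa lost its call within the high set (adjusted p = 0.0937). Within the low set H2-T22, B2m, Nlrc5 and Cd74 lost theirs (adjusted p = 0.0771 to 0.211). Without the highest Cd8a library of each group, 8 members rose and 3 fell, where 9.82% and 4.85% of all tested genes did. In that fit Nlrc5, B2m, H2-Q4, H2-Q6, Tapbp and Psmb8 lost their calls (adjusted p = 0.0543 to 0.139), while H2-K1 kept its call (log2FC 0.59, adjusted p = 0.0266).

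Leaving out the 2 Ezh2-deficient libraries without a Ms4a1 count took most calls away. These are also the Ezh2-deficient libraries with a low hypoxia score, and they had the least Cd8a of all libraries (0.936 and 0.361 CPM). The Ezh2-deficient libraries that remain both have a high hypoxia score, while the WT libraries hold both sets. The fit cannot tell these traits apart. In this fit of 2 against 5 libraries, 1 member rose (H2-Oa, at a log2FC of 0.82 with adjusted p = 0.0157) and 2 fell (Cd74 and Tapbp), where 7.35% and 6.44% of all tested genes did. H2-K1 was at a log2FC of 0.57 (adjusted p = 0.0639), B2m at 0.51 (adjusted p = 0.0729), Nlrc5 at 0.96 (adjusted p = 0.0565), H2-T22 at 0.49 (adjusted p = 0.0519) and Cd1d1 at 0.52 (adjusted p = 0.0531). The values with all libraries for these 5 genes are 0.54, 0.46, 0.94, 0.47 and 0.53. Other sizes moved further: H2-DMa went from 0.50 to 0.38 (adjusted p = 0.0616), Ciita from -1.0 to -0.70 (adjusted p = 0.153) and Tapbp from -0.36 to -0.49 (adjusted p = 0.0331). Among members that had not passed, H2-Aa went from -0.75 to -0.30 (adjusted p = 0.39), H2-Eb1 from -0.82 to -0.30 (adjusted p = 0.306) and H2-Ab1 from 0.22 to 0.85 (adjusted p = 0.373).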

How the data were processed

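RNA of 9 Treg cultures was sequenced from stranded mRNA libraries, per the labels' protocols. The authors deposited raw counts for 43432 Ensembl gene identifiers. STAR and GRCm38 were used, per the submitters' processing notes; the tool that counted reads, its strand setting and its annotation were not given in the sources used here. GENCODE M21 gave symbols and positions on the reference chromosomes for 42462 identifiers.

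Genes passing edgeR's default filter on low counts were fitted by group with TMM scaling and tested by robust quasi-likelihood F-tests in edgeR 4.0.16 under R 4.3.3, two-sided with Benjamini-Hochberg adjustment over all 13685. The biological coefficient of variation was 0.206. The fit was tested on simulated data. Subunit ratios had exact permutation tests over samples. No 2 replicates agreed within sampling noise (lowest chi-square per degree of freedom 21.9). Reads carry no molecular identifiers, so the limits that 0 counts allow cover counting error only.

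All members are accounted for; values by library are given for those past the threshold and for H2-Ab1 and other named cases, and up to 12 other pathway genes by adjusted p. Irf1, Adgre1 and the named B cell genes are given beside them from the fixed lists. Of the lists, 2 genes are not reported here. Members and lists were chosen with earlier results of these data known. The hypoxia genes, scored as mean log2(CPM + 0.5), were chosen after seeing the data. Alternatives were other scalings and filters, DESeq2 1.42.0, limma-voom (limma 3.58.1), a replicate block, each library left out and, added later, subsets by hypoxia score, Cd8a or Ms4a1, and sex (inferred from Xist) or hypoxia score as a covariate.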

Additional observations from a re-analysis of the deposited data

Results flagged for a closer look

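In 2 of 78 groups of values tested, 1 library lay far from the others, where chance gives about 1 in 20. Nlrc5 was at 102 CPM in WT replicate 3, and the nearest WT library was at 206 CPM. Ctss was at 99.2 CPM in the same library, with the nearest at 121 CPM. WT replicate 3 had a low hypoxia score and the lowest levels of the 6 class I heavy chain genes that rose and of B2m among the WT libraries. Without it the log2 fold change was 0.75 for Nlrc5 (edgeR adjusted p = 0.000161), 0.41 for H2-K1 (adjusted p = 0.0227) and 0.33 for B2m (adjusted p = 0.0218), all higher in 4 of 4 Ezh2-deficient libraries than in any WT library. The cause of its low levels was not tested.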

How the results depend on the processing

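The number of members called was 6 to 12 higher and 1 to 4 lower with 1 library left out, against 12 and 4 in all; the lowest counts, 6 and 1, came without Ezh2-deficient replicate 1 and without replicate 3. Over all tested genes the same fits gave 1170 to 1744 higher and 802 to 1477 lower, against 1797 and 1204. Members lower were 2 with the replicate block. Low hypoxia score libraries gave 6 and 0 members (424 and 146 genes), high score libraries 2 members lower (1067 and 697 genes), and the fit without the 2 Ezh2-deficient libraries that lack Ms4a1 counts 1 and 2 members (1044 genes higher). All tested genes lower were 1868 with DESeq2 and 663 without the highest Cd8a library of each group. Fewer libraries entered the subset fits, and other causes were not tested. Counts were few for Ciita, H2-DMb1 and several B cell markers: summed over a group, Ciita had 280 and 643, and Blk, which was called lower, 27 and 130 counts in Ezh2-deficient and WT Tregs. With no filter on low counts H2-Q6 and H2-Q7 were no longer called (adjusted p = 0.0818 and 0.0747).

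Same-numbered libraries deviated together by correlations of 0.21, -0.14, 0.13 and 0.21, and 1 of 8 correlated best with its own number. These values do not show that the numbers pair the samples, and they cannot exclude it. With the replicate block Tapbp and Psmb8 were no longer called and all tested genes called were 1635 higher and 1116 lower. As differences within replicate numbers, the log2 ratio of Psmb9 to Psmb6 was 0.44; with 1 library left out it was 0.40 to 0.55.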

Other observations

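The genes outside the set whose log2 CPM ran most like Cd74 over the 9 libraries were Prmt2, Ntn1, Pgp, Kcnf1 and Tmtc2, with correlations of 0.972 to 0.984. The groups do not overlap for Cd74, so these values hold the difference between the groups and are a description only. All 5 were lower in Ezh2-deficient Tregs, by log2 fold changes of -1.92 (Ntn1) to -0.53 (Prmt2).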
